A study of Mus musculus with 23 samples.

Results

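The genes described here are the aryl hydrocarbon (Ah) receptor Ahr, its partner Arnt, its repressor Ahrr, and 4 transcripts known as targets of the receptor, Cyp1a1, Cyp1a2, Cyp1b1 and Tiparp. They were chosen by name, as every non-control probe of the array that the array design assigned to 1 of these 7 genes, which gave 11 of 56605 probes and 7 of 37074 gene names. Of the 11 probes, 10 passed the filter on dim signal, and all 7 genes had at least 1 probe among the 32087 that were tested. RNA from the livers of male mice, 1 array for each mouse, was measured on Agilent 1-colour expression arrays to compare the response to the rodent PXR ligand pregnenolone 16α-carbonitrile (PCN) in the presence and absence of the pregnane X receptor (PXR). The 4 groups were WT CONT (6 mice), WT PCN (5 mice), Pxr-/- CONT (6 mice) and Pxr-/- PCN (6 mice). The study's methods give 6 mice for WT PCN, of which 5 had an array here. PCN mice received 100 mg/kg in corn oil by intraperitoneal injection on each of 4 days, CONT mice received corn oil alone, and every liver was collected at zeitgeber time 6, which was 6 h past the final dose. WT mice were C57BL/6J, purchased at 6 weeks of age, and Pxr-/- mice, on the same background and lacking the receptor in the whole body, were bred in the facility, so genotype and colony cannot be told apart. Every mouse had 2 weeks to acclimatize, and all groups shared strain background, sex, vehicle and time of day. The age of the Pxr-/- mice was not given.

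The Ah receptor is a ligand-activated transcription factor of the bHLH-PAS family that waits in the cytoplasm with chaperones, moves to the nucleus when a ligand such as a dioxin or a tryptophan product binds, pairs with ARNT and binds DNA at short elements built around a GCGTG core. Its best known targets are the CYP1 enzymes, which oxidise planar aromatic compounds, together with Ahrr and Tiparp, whose products dampen the receptor. In the liver Cyp1a2 is made by hepatocytes without an added ligand, Cyp1a1 is low until a ligand arrives, and Cyp1b1 belongs mostly to other cells, stellate cells among them.

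The promoters of 4 targets are shown as background, and their part in the calls described below was not tested. They are RefSeq sequences of the assembly GRCm38.p6, from 250 bases before to 50 bases after the transcript start, read 5′ to 3′ on the strand of the gene, with each GCGTG core (CACGC where it lies on the other strand) in capitals.
Cyp1a1 promoter, chr9:57697363-57697662 (+): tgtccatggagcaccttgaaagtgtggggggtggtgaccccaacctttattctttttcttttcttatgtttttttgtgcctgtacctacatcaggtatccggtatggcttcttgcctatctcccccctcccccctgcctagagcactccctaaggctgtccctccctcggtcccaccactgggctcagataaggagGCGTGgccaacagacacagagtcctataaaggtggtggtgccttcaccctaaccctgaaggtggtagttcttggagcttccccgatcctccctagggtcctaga
Cyp1a2 promoter, chr9:57683606-57683905 (-): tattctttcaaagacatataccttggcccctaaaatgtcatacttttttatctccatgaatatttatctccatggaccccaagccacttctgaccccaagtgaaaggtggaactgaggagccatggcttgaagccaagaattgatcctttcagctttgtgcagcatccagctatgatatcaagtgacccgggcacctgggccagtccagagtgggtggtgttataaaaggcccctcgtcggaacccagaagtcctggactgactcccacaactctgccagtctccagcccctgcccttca
Cyp1b1 promoter, chr17:79715012-79715311 (-): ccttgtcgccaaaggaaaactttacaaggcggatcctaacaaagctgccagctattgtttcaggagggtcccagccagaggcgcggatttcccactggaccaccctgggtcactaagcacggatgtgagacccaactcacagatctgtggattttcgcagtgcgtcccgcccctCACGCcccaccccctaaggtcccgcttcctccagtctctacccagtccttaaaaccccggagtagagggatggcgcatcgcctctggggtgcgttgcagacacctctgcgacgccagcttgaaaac
Tiparp promoter, chr3:65528197-65528496 (+): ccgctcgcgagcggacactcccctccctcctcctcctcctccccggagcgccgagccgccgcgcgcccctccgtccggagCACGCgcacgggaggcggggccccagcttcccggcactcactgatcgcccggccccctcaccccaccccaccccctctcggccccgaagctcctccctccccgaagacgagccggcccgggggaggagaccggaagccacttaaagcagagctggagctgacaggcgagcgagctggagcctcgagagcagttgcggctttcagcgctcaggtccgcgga
The core lay 54 bases upstream of the start in Cyp1a1, 76 bases upstream in Cyp1b1 and 170 bases upstream in Tiparp, the latter 2 on the minus strand relative to the gene. No match was found in the Cyp1a2 window, which says only that these letters are not in these 300 bases. The transcript starts of Cyp1a1 and Cyp1a2 lay 13958 bases apart on chromosome 9, on opposite strands. Both strands were searched for GCGTG and for the longer TNGCGTG, which contains it. In the 6 members with a window in the table (all but Ahr), 5 windows held the core and 1, that of Ahrr, held the longer form. The Ahrr window, which is not shown, held the core 3 times. Of all 32851 windows of the same length, 32.4% held the core and 5.07% the longer form.

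On each array 29510 to 33321 probes stood well above background. The probe for the deleted gene Nr1i2 did not separate the genotypes, with mean log2 signals of 11.47 in WT CONT, 12.10 in WT PCN, 11.44 in Pxr-/- CONT and 11.92 in Pxr-/- PCN, and whether it lies inside the deleted part was not tested. Cyp3a11, the classical PXR target, did separate them: it rose by 3.55 on the log2 scale after PCN in WT mice and by 0.31 in Pxr-/- mice (adjusted p = 0.431). Cyp2c55 and Cyp2b10 were also called higher after PCN in WT mice, and Nr1i3 (CAR) was called higher in Pxr-/- mice. Cyp3a11, Cyp2c55, Cyp2b10 and Nr1i3 were all called for the difference between the responses and for genotype under PCN. In the controls Cyp2c55 was called higher in Pxr-/- than in WT mice. As these are samples of whole liver, fewer cells of a type and less RNA per cell cannot be told apart. The hepatocyte markers Alb, Ttr, Apoa1, Hnf4a and Tat were all tested, with a mean log2 signal over the list of 16.18 to 16.69 in WT CONT, 16.18 to 16.30 in WT PCN, 16.28 to 16.61 in Pxr-/- CONT and 16.52 to 16.79 in Pxr-/- PCN livers.

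PCN was followed by higher signals of 2 of the 7 genes in WT mice, Cyp1b1 and Tiparp, and of 2 other genes in Pxr-/- mice, Ahr and Cyp1a2. Of these, Cyp1b1 was kept by the filter on dim signal only through the PCN groups. A gene was called when limma gave an adjusted p of at most 0.05 and a fold change above 1.5 for 1 of its probes. By this rule 7.07% of all genes tested were called after PCN in WT mice (4.25% higher, 2.83% lower) and 2.55% in Pxr-/- mice (1.6% higher, 0.95% lower). None of the 7 genes was called lower in either genotype. The median log2 change over the brightest probes of the 7 genes was 0.29 in WT and 0.44 in Pxr-/- mice, in both the value of Arnt. Another Arnt probe changed by -0.28 in WT mice. Over all probes, not 1 per gene, the medians were -0.02 and -0.01. Ahrr passed the filter only through WT PCN and Cyp1b1 only through the PCN groups, where their means were higher. The medians of the 7 genes are therefore no test of a shift. The response itself differed between genotypes for 0 of the 7 genes by limma, where 1.17% of all genes were called (0.883% with the higher and 0.29% with the lower response in WT), and 2 members (Cyp1a2, and Arnt by 1 of its probes) had an unadjusted p under 0.05. An unadjusted p under 0.05 in that test was found for 3889 of all 21056 genes. Thus a call in 1 genotype and not in the other was not shown to be a difference between them for any of these genes.

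**Figure D1:**
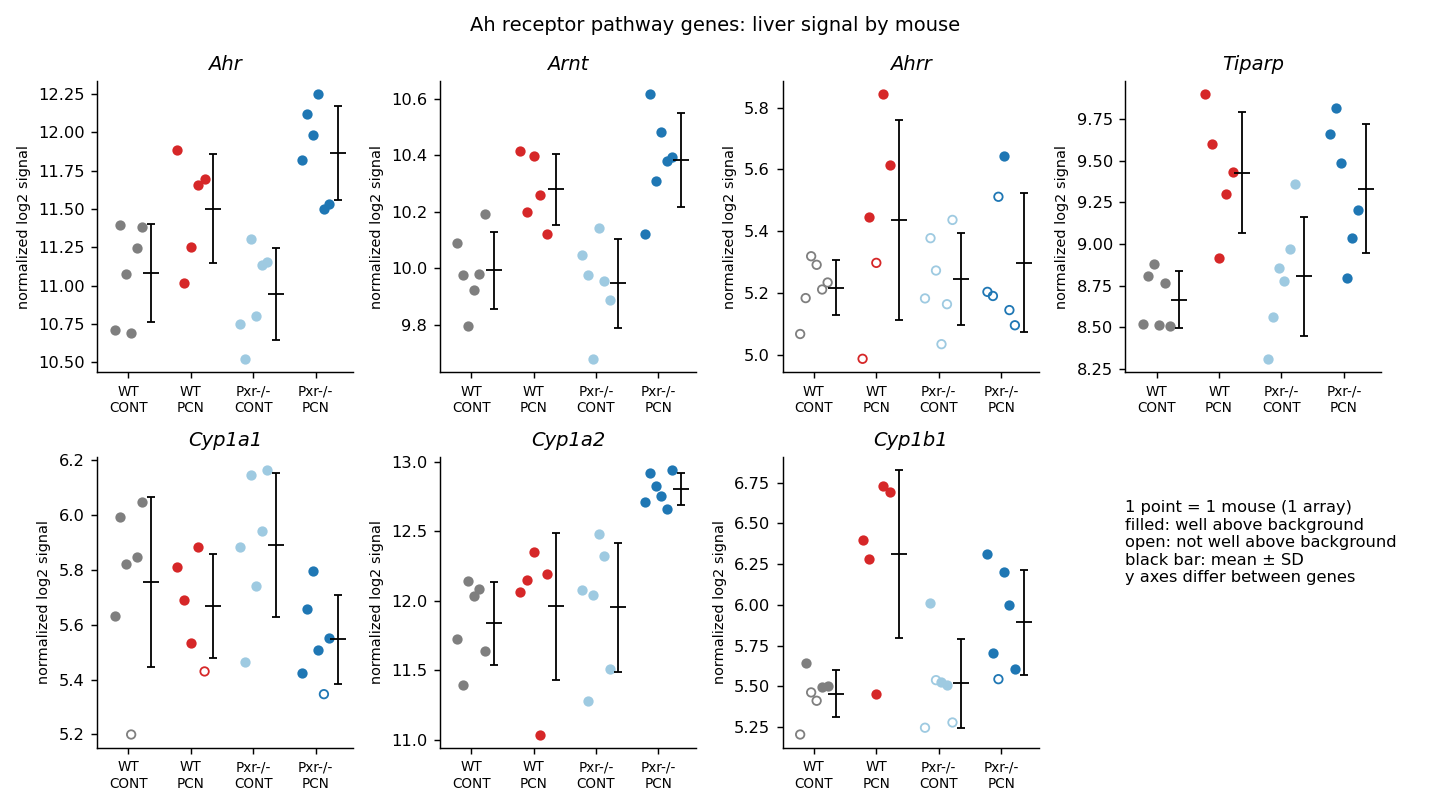
Normalized log2 signal (y axis, 1 scale per gene) of the brightest probe of each gene in the 4 groups (x axis), with 1 point per mouse and the mean ± SD as a black bar; open points were not well above background. The 6 Pxr-/- PCN livers lie above all other livers for Cyp1a2, while 1 WT PCN liver lies at 11.04, below every other liver for that gene.

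Ahr encodes the receptor. Its brightest probe (A_55_P2109613, chromosome 12, 36182724 to 36182783, mm9) exceeded background clearly on each of the 23 arrays. In WT CONT livers its log2 signal ran from 10.69 to 11.40 with a median of 11.16, and in WT PCN livers it was 11.89, 11.02, 11.25, 11.66 and 11.69. In Pxr-/- CONT livers it ran from 10.52 to 11.30 with a median of 10.97, and in Pxr-/- PCN livers from 11.50 to 12.25 with a median of 11.90. The Pxr-/- groups did not overlap, whereas 2 of the 5 WT PCN livers lay within the WT CONT range. The means were 11.08 ± 0.32 (SD, n = 6) in WT CONT, 11.50 ± 0.36 (SD, n = 5) in WT PCN, 10.95 ± 0.30 (SD, n = 6) in Pxr-/- CONT and 11.87 ± 0.31 (SD, n = 6) in Pxr-/- PCN. Ahr rose 1.89-fold after PCN in Pxr-/- mice (log2 change 0.92 ± 0.17 SE, 95% interval 0.56 to 1.28, adjusted p = 0.00376). In WT mice the log2 change was 0.43 ± 0.18 SE and did not pass the test (adjusted p = 0.0964). The difference between these responses, WT minus Pxr-/-, was -0.49 with an interval of -1.02 to 0.03 (adjusted p = 0.383).

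The order of the Ahr group means, from Pxr-/- CONT through WT CONT and WT PCN to Pxr-/- PCN, held no neighbouring pair that passed the test, with adjusted p = 0.807 for genotype in the controls and 0.243 for genotype under PCN. Within washing batch 1 the Pxr-/- response was 1.07 (adjusted p = 0.0251) and within batch 2 it was 0.77 (adjusted p = 0.130). The WT response was 0.73 in batch 1 (adjusted p = 0.0125) and -0.022 in batch 2 (adjusted p = 0.967), and on the deposited values it was 0.59 (adjusted p = 0.0364).

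A second Ahr probe (A_55_P2719822, chromosome 12, 36199083 to 36199142), designed to another transcript record, was dim and passed the background test on 2 of 6 WT CONT, 5 of 5 WT PCN and all 12 Pxr-/- arrays. Its log2 signal ran from 5.33 to 5.51 (median 5.37) in WT CONT and was 5.79, 5.57, 5.66, 5.70 and 5.78 in WT PCN. In Pxr-/- CONT it ran from 5.45 to 5.87 (median 5.70) and in Pxr-/- PCN from 5.38 to 6.31 (median 5.92). For this probe the WT groups were the ones without overlap, but neither the WT change of 0.30 (adjusted p = 0.0833) nor the Pxr-/- change of 0.20 (adjusted p = 0.327) passed the test. With the scanner's background-subtracted signal the WT change was 0.79 and was called (adjusted p = 0.0136).

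Arnt encodes the partner with which the receptor binds DNA, shared with other bHLH-PAS factors. Its brightest probe (A_55_P2100895, chromosome 3, 95301081 to 95301140) ran from 9.80 to 10.19 (median 9.98) in WT CONT and was 10.42, 10.20, 10.40, 10.26 and 10.12 in WT PCN. It ran from 9.68 to 10.14 (median 9.97) in Pxr-/- CONT and from 10.12 to 10.62 (median 10.39) in Pxr-/- PCN. PCN livers of both genotypes were mostly above their controls, with 1 liver in each PCN group inside the control range. The log2 changes of 0.29 ± 0.09 SE in WT (adjusted p = 0.0282) and 0.44 ± 0.09 SE in Pxr-/- mice (adjusted p = 0.00581) passed the p limit of 0.05, but at 1.22-fold and 1.35-fold they stayed below the fold limit and were not called. In washing batch 2 alone the Pxr-/- change was 0.66 and was called (adjusted p = 0.0462). Over all settings other than leaving 1 array out, the Pxr-/- change ran from 0.21 to 0.66, with adjusted p up to 0.439.

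Not all Arnt probes moved alike. The probe A_55_P2735190 (chromosome 3, 95296147 to 95296206), designed to another transcript record, had means of 7.64 ± 0.20 (SD, n = 6) in WT CONT, 7.37 ± 0.16 (SD, n = 5) in WT PCN, 7.66 ± 0.07 (SD, n = 6) in Pxr-/- CONT and 7.79 ± 0.13 (SD, n = 6) in Pxr-/- PCN. After PCN in WT mice its log2 change was -0.28 (adjusted p = 0.0340), the opposite sign to the brightest probe. Under PCN it was 0.42 higher in Pxr-/- than in WT mice (adjusted p = 0.00791), with no overlap between these groups, again below the fold limit. The third probe (A_55_P2814820, chromosome 3, 95278469 to 95278528) changed by 0.06 in WT (adjusted p = 0.782) and 0.32 in Pxr-/- mice (adjusted p = 0.106), neither past the test.

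**Figure D2:**
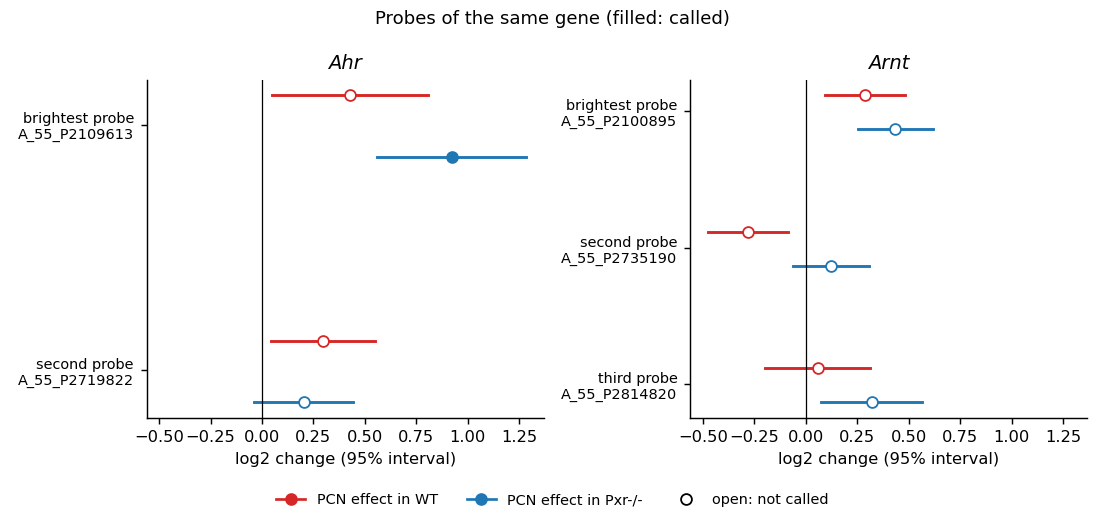
Fitted log2 change after PCN (x axis, points with 95% intervals) for each kept probe of Ahr and Arnt (y axis), in WT and Pxr-/- mice; filled points were called. For Arnt in WT mice the brightest probe lies at 0.29 and the second at -0.28, and the only filled point is the brightest Ahr probe in Pxr-/- mice.

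Ahrr encodes the repressor that competes with the receptor for ARNT and is itself a target. It was close to background throughout. Its kept probe (A_51_P254425, chromosome 13, 74348566 to 74348612) passed the scanner's background test on 3 of the 5 arrays of WT PCN, on 1 of the 6 arrays of Pxr-/- PCN and on 0 of the 6 arrays of either control group. Its log2 signal ran from 5.07 to 5.32 (median 5.22) in WT CONT and was 4.99, 5.44, 5.30, 5.84 and 5.62 in WT PCN. The probe passed the filter only through WT PCN, where the other 2 arrays were not above background and 1 of them (4.99) was the lowest of all 23, so no fold is given, and the change did not pass the test (adjusted p = 0.215). In Pxr-/- mice, at 5.04 to 5.44 (median 5.23) in CONT and 5.10 to 5.64 (median 5.20) in PCN, the groups overlapped and the test was not passed (adjusted p = 0.847). The other Ahrr probe (A_55_P2128388, chromosome 13, 74350685 to 74350744) was well above background on 0 of 23 arrays and did not pass the filter.

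Tiparp encodes a mono-ADP-ribosyltransferase that the receptor induces and that modifies the receptor in turn. Its probe (A_51_P514961, chromosome 3, 65358749 to 65358808) stood clear of background in every one of the 23 livers. The log2 signal ran from 8.51 to 8.88 (median 8.64) in WT CONT and was 9.90, 9.60, 8.91, 9.30 and 9.43 in WT PCN. It ran from 8.31 to 9.36 (median 8.82) in Pxr-/- CONT and from 8.80 to 9.81 (median 9.34) in Pxr-/- PCN. All 5 WT PCN livers lay above all 6 WT CONT livers, the lowest of them by little, and the Pxr-/- groups overlapped. Tiparp rose 1.70-fold after PCN in WT mice, from 8.67 ± 0.17 (SD, n = 6) to 9.43 ± 0.36 (SD, n = 5), a log2 change of 0.76 ± 0.19 SE (95% interval 0.37 to 1.16, adjusted p = 0.00611).

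In Pxr-/- mice the Tiparp means were 8.81 ± 0.36 (SD, n = 6) in CONT and 9.33 ± 0.39 (SD, n = 6) in PCN, a log2 change of 0.53 ± 0.18 SE that was not called (adjusted p = 0.0865). The difference between the responses was 0.24 with an interval of -0.31 to 0.79 (adjusted p = 0.741). Without Pxr-/- CONT replicate 6, the highest liver of its group, the log2 change after PCN in Pxr-/- mice was 0.64 and was called (adjusted p = 0.0416). Within washing batches the WT change was 0.82 in batch 1 (adjusted p = 0.0200) and 0.65 in batch 2 (adjusted p = 0.202).

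Cyp1a1, the enzyme usually read as a sign of receptor activation, was dim in all groups. Its probe (A_51_P279693, chromosome 9, 57551535 to 57551594) passed the background test on 5 of 6 WT CONT, 4 of 5 WT PCN, 6 of 6 Pxr-/- CONT and 5 of 6 Pxr-/- PCN arrays. The log2 signal ran from 5.20 to 6.05 (median 5.83) in WT CONT and was 5.81, 5.69, 5.53, 5.88 and 5.43 in WT PCN. It ran from 5.46 to 6.17 (median 5.91) in Pxr-/- CONT and from 5.35 to 5.80 (median 5.53) in Pxr-/- PCN. The groups overlapped in both genotypes. The log2 change after PCN was -0.08 with an interval of -0.37 to 0.21 in WT (adjusted p = 0.738) and -0.34 with an interval of -0.62 to -0.07 in Pxr-/- mice (adjusted p = 0.127), neither of them called.

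Cyp1a2, the constitutive hepatocyte member of the family, was higher in Pxr-/- PCN livers than in any other group. None of the 23 arrays had this probe near background. The log2 signal ran from 11.40 to 12.14 (median 11.88) in WT CONT and was 12.06, 12.15, 12.35, 11.04 and 12.19 in WT PCN. It ran from 11.28 to 12.48 (median 12.06) in Pxr-/- CONT and from 12.66 to 12.94 (median 12.79) in Pxr-/- PCN. All 6 Pxr-/- PCN livers lay above all other livers, whose groups overlapped among themselves, and the fourth WT PCN liver was the lowest of all 23. The means were 11.84 ± 0.30 (SD, n = 6) in WT CONT, 11.96 ± 0.53 (SD, n = 5) in WT PCN, 11.95 ± 0.47 (SD, n = 6) in Pxr-/- CONT and 12.80 ± 0.11 (SD, n = 6) in Pxr-/- PCN. Cyp1a2 rose 1.80-fold after PCN in Pxr-/- mice, a log2 change of 0.85 ± 0.21 SE (95% interval 0.42 to 1.28, adjusted p = 0.0165). In WT mice the log2 change was 0.13 with an interval of -0.32 to 0.58 (adjusted p = 0.725).

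Under PCN, Cyp1a2 was 1.79-fold higher in Pxr-/- than in WT mice, a log2 difference of 0.84 ± 0.22 SE (95% interval 0.39 to 1.29, adjusted p = 0.0208). It was the only member called between the genotypes under PCN, where 2.38% of all genes were called (0.841% higher, 1.54% lower). This comparison and the Pxr-/- response share the Pxr-/- PCN arrays. In the controls the genotype difference was 0.11 with an interval of -0.31 to 0.54 (adjusted p = 0.877). There, 0 of the 7 members were called by limma and 1 (Ahr, by its second probe) had an unadjusted p under 0.05, with 0.337% of all genes called (0.252% higher, 0.0855% lower). Over all 21056 genes, 3193 had an unadjusted p under 0.05 in the controls. The difference between the Cyp1a2 responses was -0.72 with an interval of -1.34 to -0.10 before adjustment, and it did not pass the test over all probes (adjusted p = 0.258).

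The genotype difference of Cyp1a2 under PCN depended on 1 liver: without WT PCN replicate 4 it was 0.61 and not called (adjusted p = 0.0622), while the Pxr-/- response, which does not use that liver, remained 0.85 (adjusted p = 0.00505). On the deposited values the genotype difference was 0.58 and also not called (adjusted p = 0.0646). Within batches 1 and 2 the Pxr-/- response was 0.79 (adjusted p = 0.310) and 0.91 (adjusted p = 0.0839), and the genotype difference under PCN was 0.97 (adjusted p = 0.157) and 0.62 (adjusted p = 0.290).

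Cyp1a2 is expressed mostly near the central vein, and the markers of that zone were set beside it. All 8 pericentral markers (Glul, Cyp2e1, Oat, Axin2, Lgr5, Rnf43, Tbx3 and Slc1a2) were tested, and none was called after PCN in either genotype. Their mean level ran from 11.97 to 12.29 in WT CONT, from 11.56 to 12.09 in WT PCN, from 11.79 to 12.28 in Pxr-/- CONT and from 11.96 to 12.27 in Pxr-/- PCN. The lowest of these 23 values belonged to WT PCN replicate 4, the liver with the lowest Cyp1a2. Between genotypes under PCN, Glul (glutamine synthetase) was 0.62 higher (adjusted p = 0.0159) and Oat (ornithine aminotransferase) 0.64 higher (adjusted p = 0.0159) in Pxr-/- mice, 8 of 8 markers had a difference above 0, and the median was 0.14 beside 0.01 over all probes. Of the 6 periportal markers, Sds (serine dehydratase) was 1.08 higher in that comparison (adjusted p = 0.00966) and the other 5 were not called. Of the 5 hepatocyte markers, Tat and, by 1 of its probes, Ttr were higher there, and the list means of the 2 PCN groups did not overlap. After PCN in Pxr-/- mice Apoa1 rose by 0.62 (adjusted p = 0.000955), and the Ttr response by that probe differed between genotypes, WT minus Pxr-/-, by -0.95 (adjusted p = 0.00358). The part of these markers in the Cyp1a2 difference was not tested.

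Cyp1b1, the family member of mesenchymal cells, rose in WT mice from a signal close to background. Its probe (A_51_P255456, chromosome 17, 80106547 to 80106606) passed the background test on 3 of 6 WT CONT, 5 of 5 WT PCN, 3 of 6 Pxr-/- CONT and 5 of 6 Pxr-/- PCN arrays. It passed the filter only through the PCN groups, the groups in which its mean was higher. With no filter on dim probes the WT change was 0.84 and was called (adjusted p = 0.00380). The log2 signal ran from 5.20 to 5.64 (median 5.48) in WT CONT and was 6.40, 6.28, 5.45, 6.73 and 6.69 in WT PCN. It ran from 5.25 to 6.01 (median 5.52) in Pxr-/- CONT and from 5.54 to 6.31 (median 5.85) in Pxr-/- PCN. In WT PCN, 4 livers lay above all WT CONT livers and replicate 3 lay in the middle of the control range. Cyp1b1 rose 1.79-fold after PCN in WT mice, from 5.45 ± 0.14 (SD, n = 6) to 6.31 ± 0.52 (SD, n = 5), a log2 change of 0.84 ± 0.18 SE (95% interval 0.46 to 1.22, adjusted p = 0.00204). In Pxr-/- mice the log2 change was 0.38 with an interval of 0.02 to 0.73 before adjustment (adjusted p = 0.205), and the difference between the responses was 0.46 with an interval of -0.06 to 0.98 (adjusted p = 0.415).

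The size of the Cyp1b1 change depended on how its dim signal was treated, at 1.62 with the background-subtracted signal (adjusted p = 0.00413) and 0.60 with the normexp background correction (adjusted p = 0.00103). It was 1.22 within washing batch 1 (adjusted p = 0.00478) and 0.35 within batch 2, where it was not called (adjusted p = 0.402) and where WT PCN had 2 arrays. Under PCN the Cyp1b1 difference of Pxr-/- from WT mice was -0.40 and not called (adjusted p = 0.184), while without WT PCN replicate 3 it was -0.61 and was called (adjusted p = 0.0236).

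Stellate cell markers, 2 collagen genes among them, were set beside Cyp1b1. All 9 stellate cell markers (Lrat, Des, Pdgfrb, Reln, Dcn, Col1a1, Col3a1, Hgf and Rgs5) were tested. Col1a1 and Col3a1, the chains of fibrillar collagen, rose by 3.17 and 2.18 on the log2 scale in WT mice (adjusted p = 2.33e-05 and 0.000173) and by 1.96 and 1.22 in Pxr-/- mice (adjusted p = 0.00628 and 0.0330), while the other 7 were not called. Over the 9 markers the median change was 0.09 in WT and 0.12 in Pxr-/- mice. The change was above 0 for 6 of 9 in WT and for 9 of 9 in Pxr-/- mice. The mean level of the list ran from 8.99 to 9.51 in WT CONT, from 9.48 to 10.16 in WT PCN, from 8.84 to 9.32 in Pxr-/- CONT and from 8.95 to 9.95 in Pxr-/- PCN. This mean includes Col1a1 and Col3a1, so it is not separate from their rise. The other 7 markers alone were not followed liver by liver. WT PCN replicate 3, the liver with the low Cyp1b1, had the lowest list mean of its group (9.48) and the lowest Col1a1 (10.11, against 11.96 to 12.46 in the other 4). WT PCN replicate 4 had the highest Cyp1b1 (6.73), the highest Col1a1 (12.46) and the highest list mean (10.16) of all livers. Some other livers did not keep this order. Pxr-/- CONT replicate 2 had a higher Cyp1b1 (6.01) than Pxr-/- PCN replicate 6 (5.61). Its Col1a1 was lower (9.01 against 10.59), as was its list mean (9.28 against 9.85). The 5 cholangiocyte markers had a median change of 0.73 in WT and 0.62 in Pxr-/- mice, with 4 of 5 above 0 in each. Only Sox9 was called, at 0.76 after PCN in WT mice (adjusted p = 0.0109) and at -0.76 for Pxr-/- against WT under PCN (adjusted p = 0.0279). The mean level of that list ran from 7.24 to 8.47 in WT CONT, from 8.07 to 8.73 in WT PCN, from 7.04 to 7.78 in Pxr-/- CONT and from 7.59 to 8.58 in Pxr-/- PCN. The part of these cell types in the Cyp1b1 change was not tested.

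**Figure D3:**
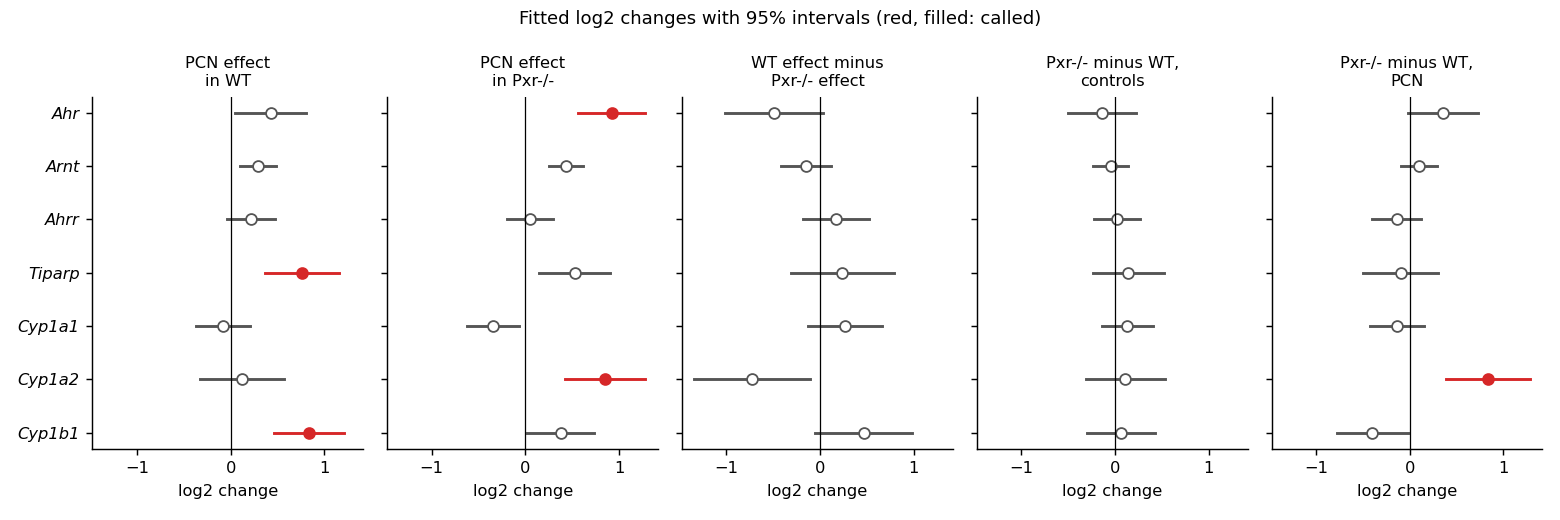
Fitted log2 changes (x axis, points with 95% intervals) of the brightest probe of each gene (y axis) in the 5 comparisons; red filled points were called. The called points are Cyp1b1 and Tiparp after PCN in WT mice, Ahr and Cyp1a2 after PCN in Pxr-/- mice, and Cyp1a2 between genotypes under PCN; no interval of the control comparison excludes 0.

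The other genes of the pathway moved little as groups. None of the 4 chaperones of the resting receptor was called after PCN in either genotype, and neither was any of the 5 coactivators. The coactivators had a change below 0 in 5 of 5 cases in both genotypes. Their medians were -0.20 in WT and -0.11 in Pxr-/- mice, beside -0.02 and -0.01 over all probes. The share of all genes with a change below 0 was not counted. Of 6 related bHLH-PAS genes, 4 were tested, and Epas1 (HIF-2α, another partner of ARNT) rose by 0.63 after PCN in Pxr-/- mice (adjusted p = 0.00503) and was 0.65 higher in Pxr-/- than in WT mice under PCN (adjusted p = 0.00409). None of these 4 genes was called for the difference between the responses. The chaperone Hsp90aa1 was lower in that last comparison by 1 of its probes only, at -0.83 (adjusted p = 0.0166).

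Of 12 further genes of the Ah receptor battery, 11 were tested. After PCN in WT mice 2 were called higher and none lower, with a median change of 0.04, and in Pxr-/- mice 1 was called lower, with a median of 0.14. The difference between the responses was called for none of the 11, so a call in 1 genotype only was not shown to be a difference between them. Gsta2, a glutathione transferase that PXR and NRF2 also induce, had mean log2 signals of 11.77 in WT CONT, 14.36 in WT PCN, 12.07 in Pxr-/- CONT and 12.61 in Pxr-/- PCN. It rose by 2.61 in WT mice (adjusted p = 0.00149), with 0.54 in Pxr-/- mice not past the test (adjusted p = 0.594), and under PCN the difference of Pxr-/- from WT mice was -1.77 (adjusted p = 0.0468). Ugt1a6b, a glucuronosyltransferase, rose by 0.69 in WT mice by 1 of its probes (adjusted p = 0.000236), and Nfe2l2, which encodes NRF2, fell by 0.66 in Pxr-/- mice by 1 of its probes (adjusted p = 0.00451). Slc46a3, a lysosomal transporter, was 0.75 higher in Pxr-/- mice under PCN (adjusted p = 0.0281). Nqo1, a quinone reductase often read beside Cyp1a1, changed by 0.42 in WT mice without passing the test (adjusted p = 0.0530) and by -0.02 in Pxr-/- mice.

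Tryptophan breakdown yields ligands of the receptor, and of its 5 listed enzymes 4 were tested. Afmid, the kynurenine formamidase, rose in both genotypes, by 0.98 in WT (adjusted p = 1.44e-05) and 0.65 in Pxr-/- mice (adjusted p = 0.0032). Its mean log2 signals were 11.19 in WT CONT, 12.15 in WT PCN, 11.50 in Pxr-/- CONT and 12.15 in Pxr-/- PCN, and its second probe was called in both as well. The other 3 tested enzymes, Tdo2, Ido2 and Il4i1, were not called.

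**Figure D4:**
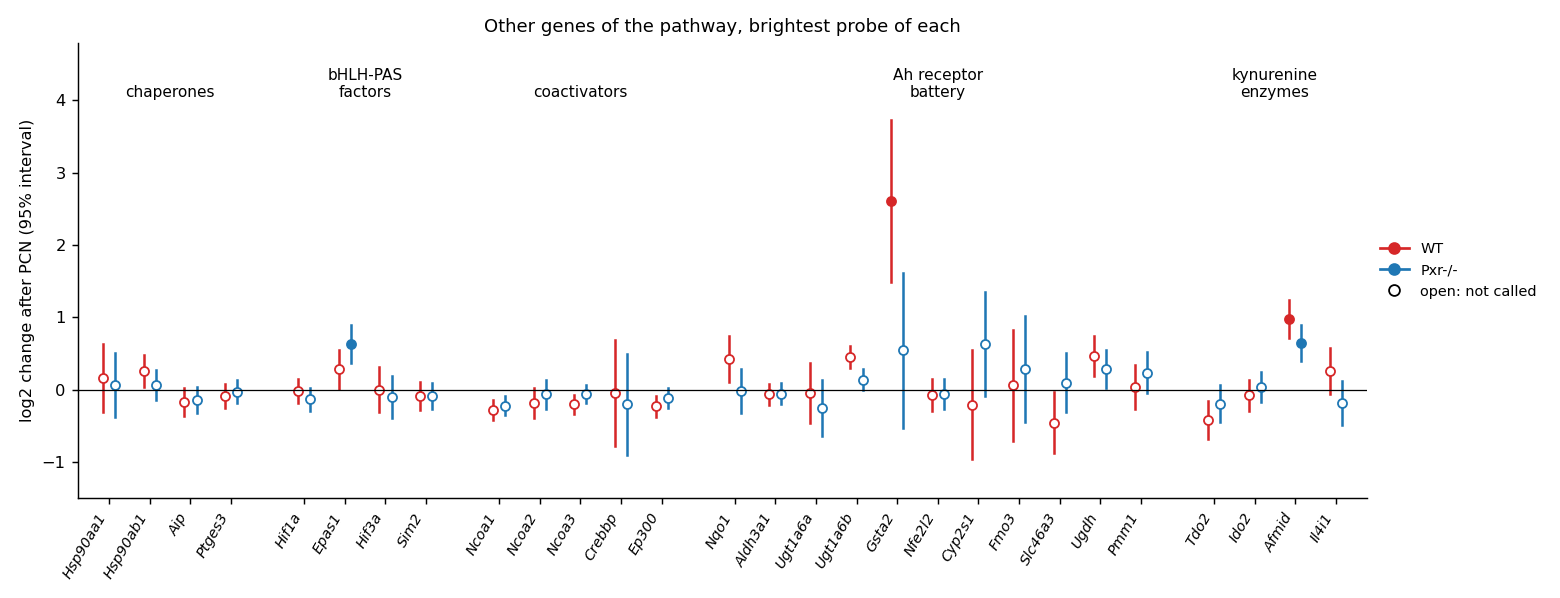
Fitted log2 change after PCN (y axis, points with 95% intervals) in WT and Pxr-/- mice for the brightest probe of each tested gene of the 5 other pathway lists (x axis); filled points were called. Gsta2 in WT mice at 2.61, Epas1 in Pxr-/- mice at 0.63 and Afmid in both genotypes are the filled points, and probes other than the brightest are not drawn.

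As a description of which genes followed each member most closely over the 23 livers, Pearson's r was taken after each washing batch's mean was removed, over 1 probe of each of 15098 genes. These points share the group differences, so r was also taken after the group means were removed. Cyp1b1 was most like Col5a1 (a collagen chain, r = 0.919), Pdgfra (a growth factor receptor of mesenchymal cells, r = 0.917) and Sphk1 (sphingosine kinase, r = 0.913), with r from 0.776 to 0.816 within groups. Cyp1a2 was most like Olfr114 (r = 0.945), Akr1c20 (r = 0.911) and Cyp27a1 (sterol 27-hydroxylase, r = 0.882), with r from 0.823 to 0.889 within groups. Ahr was most like Ntf3 (r = 0.869), Lrrc8a (r = 0.855) and Flt1 (a VEGF receptor, r = 0.853), where r fell to 0.563, 0.564 and 0.667 within groups. Tiparp was most like Prkab1 (r = 0.866), Surf2 (r = 0.857) and Shroom1 (r = 0.846), and Arnt like Galnt11 (r = 0.856), Tirap (r = 0.841) and B4galt1 (r = 0.840). Within groups, in the same order, r was 0.637, 0.794 and 0.667 for Tiparp and 0.570, 0.589 and 0.495 for Arnt. Cyp1a1 was most like Nt5c2 (r = 0.759), Tenm3 (r = 0.749) and Col9a2 (r = 0.738), and Ahrr most like Iqgap3 (r = 0.749), Rpl19 (r = 0.747) and Bard1 (r = 0.744). Within groups r was 0.877, 0.632 and 0.656 for Cyp1a1 and 0.739, 0.831 and 0.786 for Ahrr. Ahrr was well above background on 4 of 23 arrays and Cyp1a1 was dim, so the values of both rest on signal close to background.

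The 5 called changes kept their direction in every alternative that was fitted. The plot of these changes under other settings shows where a call was lost, which for the PCN effects happened only within a single washing batch.

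**Figure D5:**
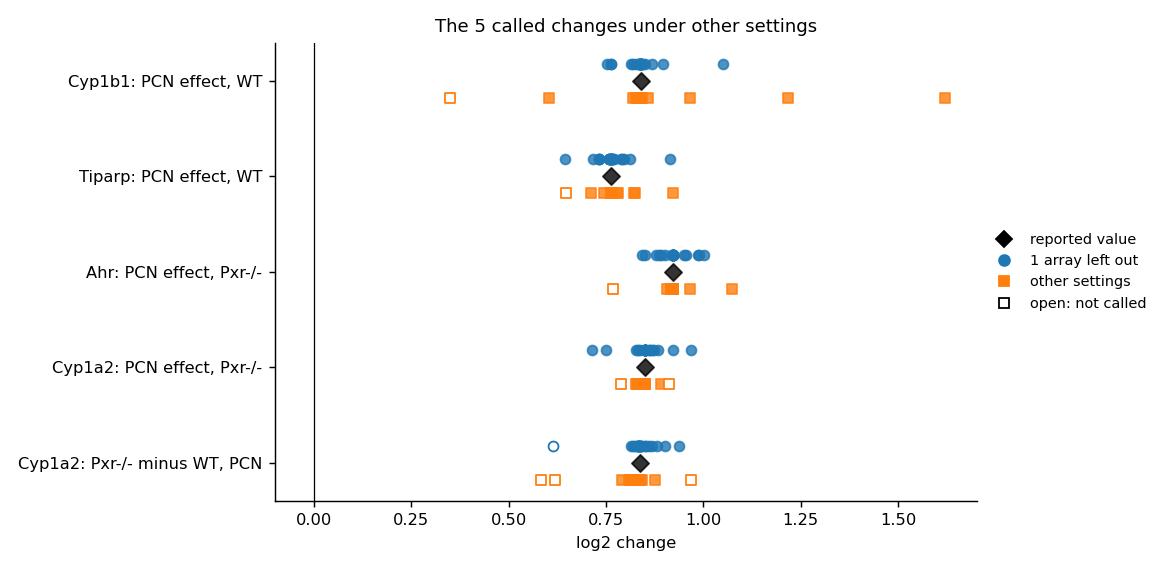
Log2 change (x axis) of the 5 called results (y axis) as reported (diamonds), with 1 array left out (circles) and under other settings (squares); open symbols were not called. The genotype difference of Cyp1a2 under PCN has open symbols at 0.61 without WT PCN replicate 4, at 0.58 on the deposited values, and at 0.62 and 0.97 within a washing batch.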

How the data were processed

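Liver RNA of 23 mice was measured on Agilent 1-colour arrays in 4 groups taken from the labels (2 genotypes, each with CONT and PCN), with the 2 washing batches also from the labels and 8 slides from the array files. The deposited scanner files are, per the file headers, output of Agilent Feature Extraction 10.10.1.1, where every spot has an unlogged intensity and arrays are not yet normalized to each other. The authors also deposited normalized log2 values of the same arrays, which by their methods were log2 median signals corrected for washing batch and normalized with CrossNorm; the grouping used for it was not given in the sources used here. Those log2 values covered 32574 probes, 98.1% of which passed the filter used here, with array medians from 7.54 to 8.01, and served as an alternative.

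The values reported were computed from the median signal of the scanner files, taken to log2. Control spots and 2225 outlier spots were left out, spots of a probe were averaged, and a probe was kept where over 50% of the arrays in at least 1 group had it well above background (32087 of 56605, covering 21056 gene names). Kept log2 signals were quantile normalized. Changes are therefore relative to all kept probes of an array. A level of 1 probe is not compared with that of another. Probe coordinates are those of the array design, in build mm9; a gene annotation of that build was not used here, so that exons are not given. Promoter sequences come from the RefSeq table of GRCm38.p6, in which 6 of the 7 genes matched.

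Models were fitted with lmFit and eBayes of limma 3.58.1, in R 4.3.3 with the package data.table (1.17.8). A single fit held the 23 arrays, the groups and washing batch as an additive term, leaving 18 residual degrees of freedom. Contrasts compared PCN with CONT in each genotype, the difference between these responses, and Pxr-/- with WT in the controls and under PCN; they share arrays. P-values were adjusted by the Benjamini-Hochberg procedure over all kept probes, with calls made at adjusted p ≤ 0.05 and fold change > 1.5. Errors of changes are standard errors from this fit and intervals are 95% intervals before adjustment. Fitted changes take the batch term into account and so are not exactly the difference of 2 group means. P-values measure the spread between these mice, and the number of arrays limits the precision. The fits were tested on simulated data. Python packages were pandas 2.3.3, numpy 2.4.6 and matplotlib 3.10.9.

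The genes, pathway lists and marker lists were chosen with earlier results of these data known. All 7 genes were named, and the brightest kept probe (by its mean over all arrays) was taken to read a gene. Genes of the pathway lists were named where called, and for each of the 7 genes the 3 genes with the highest correlation were named. Nqo1, the Nr1i2 check and genes given with their lists were named beside this rule after their values were seen. Gsta1 was not analysed here. The identifier, position and sequence of 1 probe are not reported here. The alternatives were other background corrections, scalings and filters, no batch term, each batch alone, slide or replicate number as a block, fewer samples in the fit, each array left out, 1 probe per gene and no fold limit.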

Additional observations from a re-analysis of the deposited data

Results flagged for a closer look

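The Cyp1a2 signal of WT PCN replicate 4 was 11.04, while the next lowest of the 5 WT PCN livers was 12.06, a gap large enough against the whole range of the group to pass Dixon's 95% limit. Of 40 groups of values examined (10 probes in 4 groups), this was the 1 that passed, and chance passes about 1 in 20. The same liver had the highest Col1a1 (12.46) and the lowest pericentral marker mean (11.56) of all 23 livers. Without it, the Cyp1a2 difference between genotypes under PCN was 0.61 and was not called (adjusted p = 0.0622), and the change after PCN in WT mice was 0.35 (adjusted p = 0.199).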

How the results depend on the processing

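Of 1150 values with 1 array left out, 1147 stayed on their side of the threshold without a reversal, and of 580 values under other settings 567 did. Most of these values were not called in the reported fit, so these shares say little about the calls. In washing batch 2 alone none of the 5 called changes was called. A change of sign was taken as a reversal where the 95% interval excluded 0 in either fit; of the 15 sign changes with 1 array left out and the 23 under other settings, the Ahr value below was the 1 of this kind. Under PCN the count of genes called between genotypes, 1 as reported (Cyp1a2), was 2 without a fold limit (Arnt added), 0 on the deposited values, 0 in washing batch 1 alone and 0 in batch 2 alone, and ran from 0 (without WT PCN replicate 4) to 2 (without WT PCN replicate 3, Cyp1b1 added) with 1 array left out. The count after PCN in Pxr-/- mice, 2 as reported, was 1 in batch 1 alone (Ahr), 1 in batch 2 alone (Arnt) and 3 without a fold limit (Arnt added), and that in WT mice, 2 as reported, was 0 in batch 2 alone and 3 in batch 1 alone, on the deposited values and with the background-subtracted signal (Ahr added in each), and 3 without a fold limit (Arnt added). A batch alone has fewer arrays. The brightest Ahr probe reversed in WT mice in batch 2 alone, at -0.022 (adjusted p = 0.967); the cause was not tested. After group means were removed, correlations of same-numbered arrays ran from -0.09 to 0.49. Arrays of unlike number were not compared, so whether the replicate numbers pair the samples was not tested. With the replicate number as a block the counts of called genes were unchanged for all 5 comparisons: 2 after PCN in WT, 2 in Pxr-/- mice, 1 between genotypes under PCN and 0 in the other 2. Slide as a random block (correlation 0.0095) changed no count either. On the deposited values the median change of all probes after PCN in WT mice was 0.11, against -0.02 as reported. For genotype it was -0.11 against -0.01 in the controls and -0.18 against 0.01 under PCN. In the same order, the higher share of called genes moved from 60.1% as reported to 83.9%, from 74.6% to 42.9% and from 35.3% to 5.16%. That share moved from 62.8% to 74.4% after PCN in Pxr-/- mice and from 75.3% to 88.4% for the difference between the responses. Over all genes, the number called after PCN in WT mice, 895 higher and 595 lower, was 1577 and 303 on the deposited values and 1287 and 1118 with the background-subtracted signal. Signal close to background limits Ahrr, Cyp1a1, Cyp1b1 and the second Ahr probe.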
